A study of Mus musculus with 6 samples.

Results

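The Bcl2 family of cell death regulators was followed in ovarian RNA from mice of high and low litter size through 10 genes, Bax, Bak1, Bcl2, Bcl2l1, Mcl1, Bcl2l11, Bbc3, Pmaip1, Bid and Bmf. The genes were taken by name from a list and not by a threshold on their values here. The list was chosen with earlier results of these data known. All 10 were found among the 36727 genes of the deposited count table, and all 10 passed the filter on low counts. The 6 libraries came from ovarian tissue, labelled as staged by estrous phase, of adult female F4 inbred Swiss albino mice aged 135 to 140 days. The 3 samples of high litter size were replicates 1, 3 and 4 and the 3 samples of low litter size were replicates 1, 2 and 5, and litter size was the only labelled difference. The labels name no treatment and no transgene. Whether each sample is a different animal is not stated, so p-values rest on the spread between samples, part of which may be technical.

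Proteins of this family decide whether the outer membrane of the mitochondrion stays intact. Bax and Bak1 encode the effectors that form pores in it and let cytochrome c out, which starts the caspase cascade. Bcl2, Bcl2l1 (which encodes Bcl-xL) and Mcl1 encode survival proteins that hold the effectors and their activators in check. Bcl2l11 (Bim), Bbc3 (Puma), Pmaip1 (Noxa), Bid and Bmf encode BH3-only proteins, which relay stress signals by binding the survival proteins or the effectors through a short helix, the BH3 domain. In the ovary most follicles are lost by atresia, in which granulosa cells die by this route, and oocytes of the resting pool die through Puma and Noxa after DNA damage under control of the p63 protein.

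The stretch that joins the 3 roles is the BH3 helix. Its codons are shown because BH3-only proteins bind the survival proteins or the effectors through theirs. A core of 6 codons was searched in the translated coding sequences of the GENCODE M21 annotation (GRCm38), namely leucine, any 3 residues, glycine or alanine, and aspartate. All 10 members held it, and 9 held it exactly 1 time. The pattern is short, and 23.8% of 21562 mouse genes with a complete coding sequence held it at least 1 time, so a match is a description only. The sequences run 5′ to 3′ on the coding strand, with the 6 core codons in capitals and 4 codons on either side.
Bax (chr7:45465994-45466035, minus strand, exon 3 of 6): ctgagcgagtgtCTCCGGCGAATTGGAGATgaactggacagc
Bak1 (chr17:27022528-27022569, minus strand, exon 4 of 6): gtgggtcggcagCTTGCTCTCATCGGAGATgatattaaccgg
Bcl2 (chr1:106712572-106712613, minus strand, exon 1 of 2): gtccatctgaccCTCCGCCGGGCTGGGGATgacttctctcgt
Bcl2l1 (chr2:152829694-152829735, minus strand, exon 2 of 3): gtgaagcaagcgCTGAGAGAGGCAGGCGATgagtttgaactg
Mcl1 (chr3:95659424-95659465, plus strand, exon 1 of 3): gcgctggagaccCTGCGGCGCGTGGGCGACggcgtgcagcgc
Bcl2l11 (chr2:128147138-128147179, plus strand, exon 3 of 4): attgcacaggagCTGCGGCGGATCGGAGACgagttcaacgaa
Bbc3 (chr7:16313761-16313802, plus strand, exon 3 of 4): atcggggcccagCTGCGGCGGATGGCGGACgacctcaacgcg
Bid (chr6:120897286-120897327, minus strand, exon 4 of 6): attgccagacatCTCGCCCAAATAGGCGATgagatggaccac
Bmf (chr2:118545097-118545138, minus strand, exon 4 of 5): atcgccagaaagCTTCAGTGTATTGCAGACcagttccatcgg
Each stretch of 42 bases lay within 1 coding exon. Over the 18 core bases, Bcl2l11 and Bbc3 shared 15, the most of any pair printed, while Bcl2l1 and Bmf shared 5, the fewest.

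Total estimated counts were 17620903 to 24758222 per library, and counts of the members ran from 51 to 5125. The unit CPM is the count relative to the library's TMM-normalized total, and intervals on counts cover counting error only. At the lowest count, Bbc3 in low replicate 1, the level of 2.95 CPM had a 95% Poisson interval of 2.19 to 3.87 CPM. Markers of granulosa, luteal and oocyte cells differed more between libraries than the members did, with a ratio of the highest to the lowest library of 5.47 to 1933 for each such marker with counts in every library, against 1.25 to 4.52 for the members. The summed level of 7 granulosa cell markers ranged from 17.3 to 398 CPM in the high group and from 25.1 to 276 CPM in the low group. It was low in high replicates 1 and 3 and in low replicate 2. In high replicate 1 the FSH receptor gene Fshr and the oocyte coat genes Zp2 and Zp3 had 0 counts. In high replicate 3 Fshr had 0, and in low replicate 2 the anti-Mullerian hormone gene Amh, Zp2 and Zp3 had 0. Some defining markers of the labelled tissue were thus not counted there, while others were. The granulosa marker Foxl2 ranged from 10.3 to 21.6 CPM over these libraries, against 31.1 to 56.3 CPM in the rest. Inha, another granulosa marker, stood at 1.23 to 2.12 CPM, against 110 to 199 CPM. The simple epithelium sum lay lower and the lymphocyte sum higher in all high libraries, the latter at 135 to 330 CPM against 83.6 to 114 CPM. Adipocyte markers summed to 21411 CPM in high replicate 3 and to 209 to 2735 CPM in the other libraries. In bulk RNA, fewer cells of a type and less RNA per cell cannot be told apart.

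**Figure D1:**
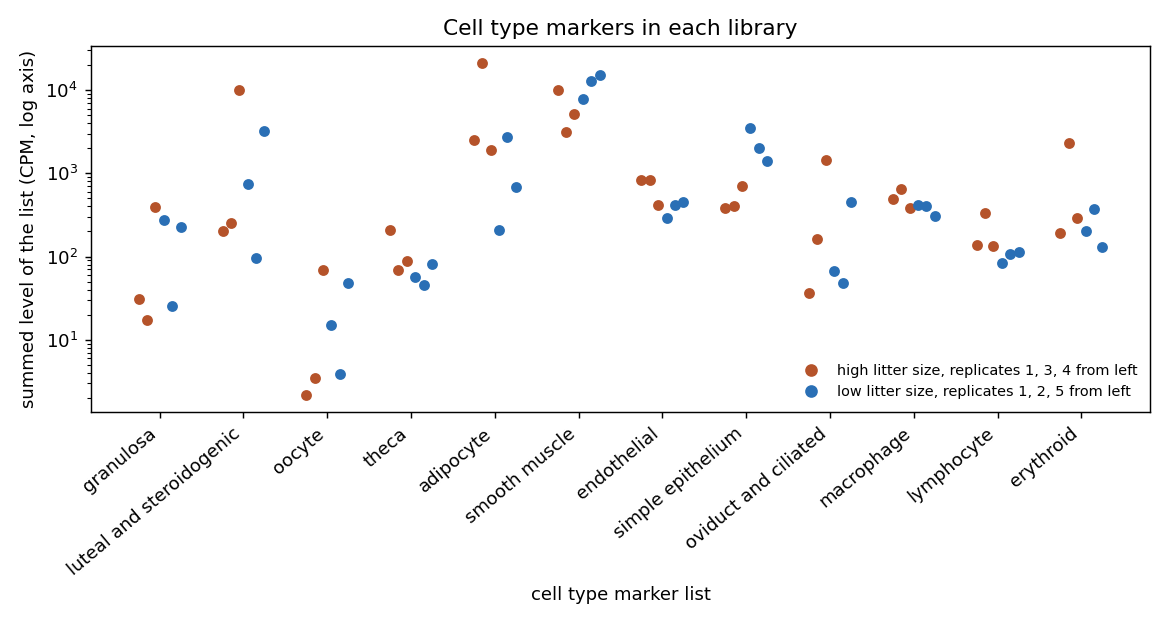
Summed level (CPM, log axis) of 12 cell type marker lists, 1 point per library, high litter size in orange and low litter size in blue. Simple epithelium sums lie at 387 to 709 CPM in the high and 1419 to 3487 CPM in the low libraries, and granulosa sums are low in high replicates 1 and 3 and low replicate 2.

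The survival gene Mcl1 was the most abundant member in all 6 libraries. Per kilobase of exon, which makes levels of different genes comparable, Mcl1 had 56.0 to 69.9 CPM per kb, a range separate from that of every other member. The effectors Bax (13.7 to 23.1 CPM per kb) and Bak1 (10.9 to 25.1) followed, and Bax lay above Bak1 in 3 of 6 libraries, so their order was not fixed. Bmf (6.35 to 28.7 CPM per kb) and Bcl2l1 (8.09 to 13.3) overlapped both each other and Bak1. The remaining 5 members, Pmaip1, Bcl2, Bcl2l11, Bid and Bbc3, had mean levels of 4.40, 3.91, 3.65, 3.15 and 3.10 CPM per kb. Neighbours in that order overlapped in range, and Bcl2l1 lay above Pmaip1 in 6 of 6 libraries although their ranges over all libraries overlapped. Exon length was the union of all annotated exons, so a gene read mainly as a short transcript is placed too low.

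**Figure D2:**
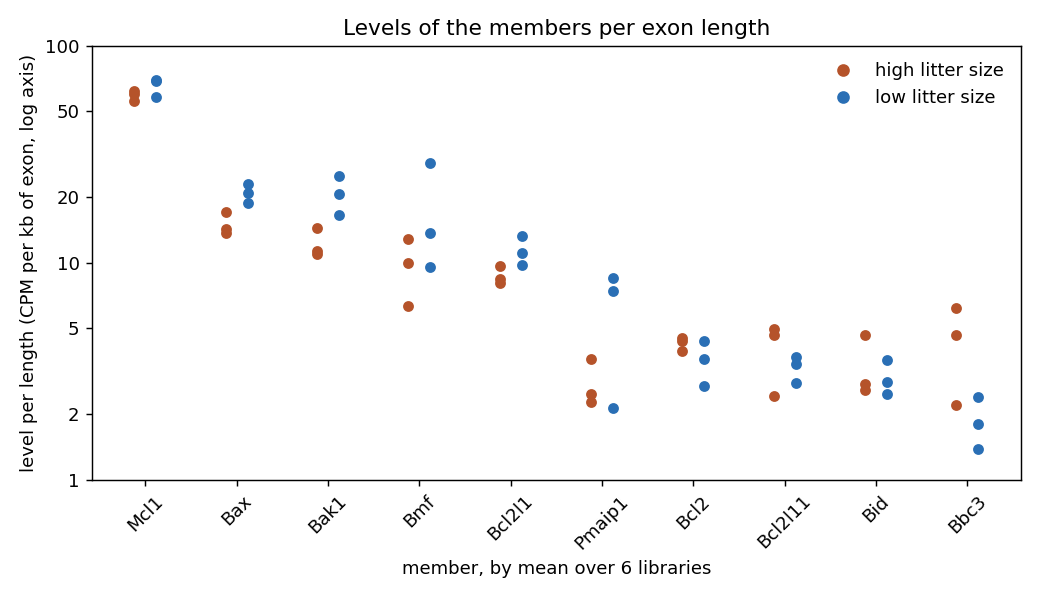
Level per exon length (CPM per kb, log axis) of each member, 1 point per library, ordered by the mean over 6 libraries. Mcl1 stands apart at 56.0 to 69.9 CPM per kb, and the 5 members at the right overlap each other.

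The members differed in how much they varied from library to library. The ratio of the highest to the lowest library was 1.25 for Mcl1, 1.64 for Bcl2l1, 1.67 for Bcl2 and 1.68 for Bax. It was 1.87 for Bid, 2.04 for Bcl2l11, 2.30 for Bak1, 3.97 for Pmaip1, 4.47 for Bbc3 and 4.52 for Bmf. The widest ratios thus belonged to 3 BH3-only genes. The median over the members was 1.96, beside 2.39 over the 16171 tested genes with counts in every library.

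Setting high against low litter size asks, as the study's title puts it, for ovarian genes tied to fitness. None of the 10 members passed the edgeR quasi-likelihood test at an adjusted p under 0.05, where 0.00608% of the 16455 genes tested did. DESeq2, which called 5.92% of the genes it gave an adjusted p, and limma voom also called 0 members. At an unadjusted p under 0.05, edgeR gave 3 members, Bak1 and Bax with lower and Bbc3 with higher values in the high group, where 14.4% of all genes were under that mark, 7.82% with lower and 6.56% with higher values. The high libraries lay entirely below the low libraries for 3 members, Bax, Bak1 and Bcl2l1, and entirely above for 0. Over all genes tested 19.5% lay entirely above or below, 10.8% below and 8.75% above. The median log2 fold change of the members, high minus low, was -0.27, beside 0.07 over all genes tested.

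**Figure D3:**
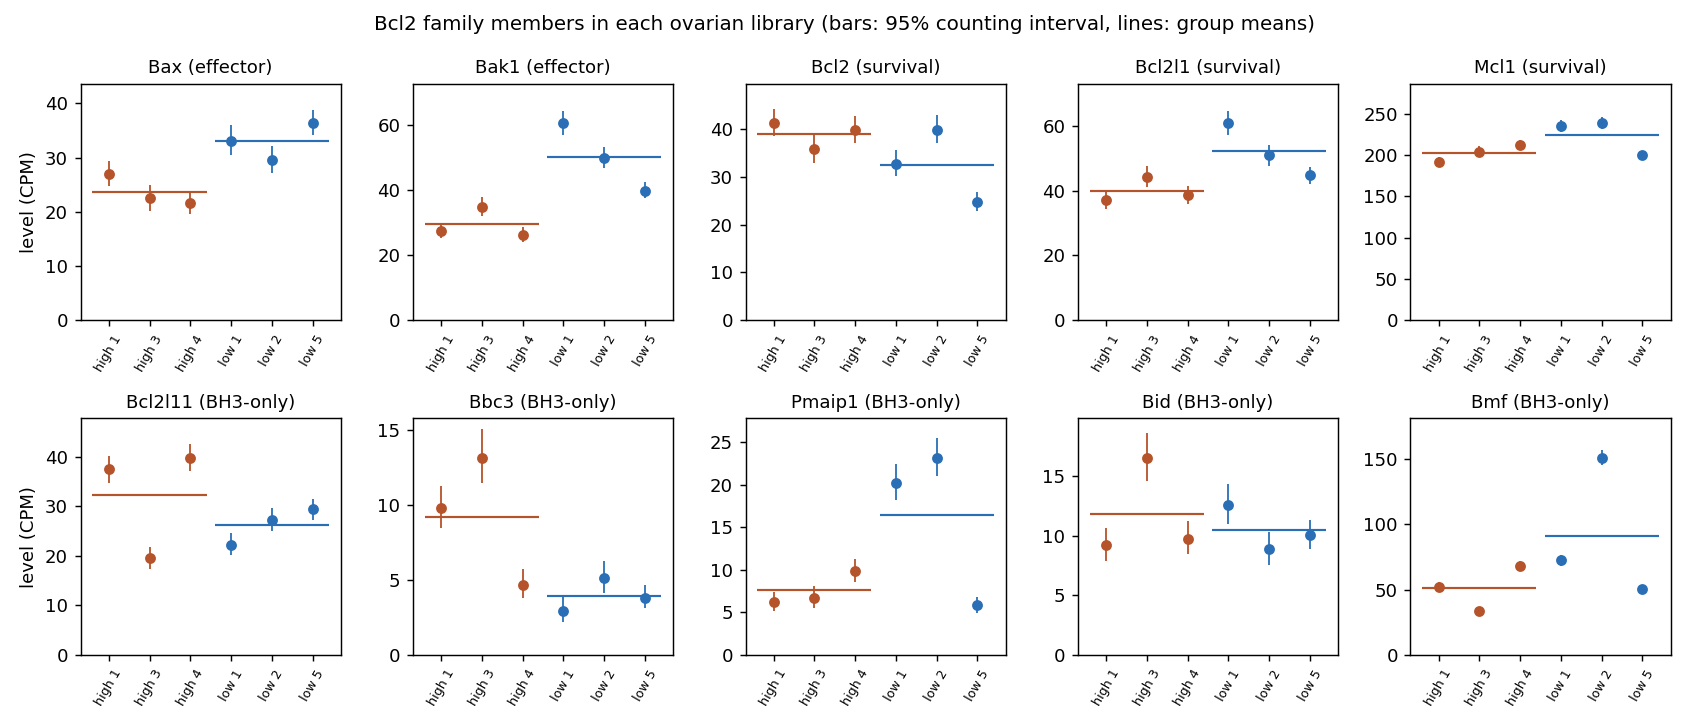
Level (CPM) of each member in each library, high litter size in orange and low litter size in blue, with 95% counting intervals as bars and group means as lines. The 3 high libraries lie below the 3 low libraries for Bax, Bak1 and Bcl2l1, and the groups overlap for the other 7 members.

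Both effectors had lower values in the high libraries, without passing the test. Bak1 (ENSMUSG00000057789, chromosome 17, 27019810 to 27029009, GRCm38) had 27.4, 34.7 and 26.3 CPM in the high libraries against 60.5, 49.8 and 39.8 CPM in the low ones, always given in replicate order. The highest high library, replicate 3, lay below the lowest low library, replicate 5. The means were 29.5 ± 4.57 and 50.0 ± 10.4 CPM (SD, n = 3), with a log2 fold change of -0.76 (SE 0.23, edgeR adjusted p = 0.254, DESeq2 adjusted p = 0.0963). This was the smallest adjusted p of any member in either tool, and Bak1 ranked 871 by p among the genes tested. Bax (ENSMUSG00000003873, chromosome 7, 45461697 to 45466898) had 27.0, 22.5 and 21.6 CPM in the high libraries against 33.1, 29.6 and 36.4 CPM in the low ones. Its groups did not overlap either, and its log2 fold change was -0.48 (SE 0.19, edgeR adjusted p = 0.336). With scaling by library size alone the groups of Bax overlapped, while those of Bak1 and Bcl2l1 did not.

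Markers of simple epithelium differed between the groups in the same direction as Bak1, Bax and Bcl2l1. All 5, the keratins Krt8, Krt18 and Krt19 and the adhesion genes Epcam and Cdh1, lay entirely lower in the high libraries, and their summed level was 387 to 709 CPM in the high libraries against 1419 to 3487 CPM in the low ones. Within the low group the sum was highest in replicate 1 (3487 CPM), then replicate 2 (2009 CPM) and replicate 5 (1419 CPM). Bak1 and Bcl2l1 stood in that same order within the low group, and Bax, highest in replicate 5, did not. Within the high group the sum was highest in replicate 4 (709 CPM), where Bak1 and Bax had their lowest level of the 6 libraries and Bcl2l1 lay between replicates 1 and 3. None of the 5 was at 0 in any library. All 6 smooth muscle markers also had lower fitted values in the high group, with a median log2 fold change of -1.09, but their sums overlapped between groups. All adipocyte, endothelial, macrophage and erythroid markers had higher fitted values. The part of any of these markers in the result was not tested.

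Among the survival genes, Bcl2l1 (ENSMUSG00000007659, chromosome 2, 152780668 to 152831728) had 37.1, 44.3 and 38.7 CPM in the high libraries against 60.9, 50.9 and 44.7 CPM in the low ones. High replicate 3 and low replicate 5 nearly met, and the log2 fold change was -0.38 (SE 0.19, edgeR adjusted p = 0.421). Bcl2 (ENSMUSG00000057329, chromosome 1, 106538178 to 106714274) had 41.3, 35.9 and 39.9 CPM in the high libraries against 32.8, 39.9 and 24.7 CPM in the low ones. The groups overlapped, low replicate 5 was the lowest library, and the log2 fold change was 0.26 (SE 0.22, edgeR adjusted p = 0.636). Without low replicate 5 it was 0.10. Mcl1 (ENSMUSG00000038612, chromosome 3, 95658788 to 95663176) had 191, 204 and 212 CPM in the high libraries against 236, 239 and 200 CPM in the low ones. Its log2 fold change was -0.15 with a 95% interval of -0.62 to 0.32, the smallest difference in size among the 10, and the groups overlapped. The gene totals do not separate isoforms, so long and short products of Bcl2l1 and Mcl1, which can act in opposite directions, are summed here.

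Of the 5 BH3-only genes 3 had higher and 2 lower fitted values in the high group, and the groups of all 5 overlapped. Bbc3, which encodes Puma, a target of p53 and its relatives (ENSMUSG00000002083, chromosome 7, 16308393 to 16318205), had 9.81, 13.2 and 4.68 CPM in the high libraries against 2.95, 5.12 and 3.82 CPM in the low ones. High replicates 1 and 3 stood above all others, and high replicate 4 lay within the low group. The log2 fold change was 1.22 (SE 0.47, edgeR adjusted p = 0.327), or 0.87 without high replicate 3, 1.50 without high replicate 4 and 0.43 with high replicates 1 and 3 and low replicate 2 removed together, an alternative chosen after seeing the data. High replicate 3 also had the highest adipocyte sum, and high replicates 1 and 3 were among the 3 libraries of low granulosa marker level, with sums of 30.8 and 17.3 CPM. The third, low replicate 2 with 25.1 CPM, had the highest Bbc3 of the low group, and the part of these markers was not tested.

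Pmaip1, which encodes Noxa, a binder of Mcl1 (ENSMUSG00000024521), had 6.24, 6.74 and 9.85 CPM in the high libraries against 20.3, 23.2 and 5.85 CPM in the low ones. Low replicates 1 and 2 stood above all others, and low replicate 5 was the lowest of the 6. The log2 fold change was -1.11 (SE 0.53, edgeR adjusted p = 0.4), or -1.51 without low replicate 5, -0.78 without low replicate 2 and -0.43 with the same 3 libraries removed. Bmf, whose product is held at the cytoskeleton in healthy cells (ENSMUSG00000040093, chromosome 2, 118528757 to 118549687), had 52.2, 33.3 and 67.9 CPM in the high libraries against 72.3, 151 and 50.0 CPM in the low ones. Low replicate 2 stood far above the rest, and the log2 fold change of -0.83 (SE 0.46, edgeR adjusted p = 0.464) became -0.26 without it and 0.12 with the same 3 libraries removed. Bbc3 and Pmaip1, both targets of the p53 family, thus had fitted values of opposite sign.

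Bcl2l11, which encodes Bim, an activator of the effectors (ENSMUSG00000027381, chromosome 2, 128126038 to 128162547), had 37.5, 19.5 and 39.8 CPM in the high libraries against 22.3, 27.2 and 29.4 CPM in the low ones. The high group held both the highest and the lowest library. The log2 fold change was 0.29 (SE 0.31, edgeR adjusted p = 0.705), or 0.55 without high replicate 3 and 0.09 without high replicate 4. Bid, which links death receptors to mitochondria after cleavage by caspase-8 (ENSMUSG00000004446, chromosome 6, 120891930 to 120916853), had 9.20, 16.5 and 9.75 CPM in the high libraries against 12.6, 8.85 and 10.1 CPM in the low ones. High replicate 3 was the highest library, and without it the log2 fold change went from 0.17 to -0.15. Bid had 16.5 CPM there beside an erythroid marker sum of 2342 CPM, against 129 to 368 CPM in the other libraries. High replicate 3 also had the highest adipocyte sum, 21411 CPM, and the part of either cell type was not tested.

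The ratio of effector to survival transcripts is free of library scaling, since both genes are read in the same library. Bax over Bcl2, as levels per exon length, was 3.81, 3.64 and 3.15 in the high and 5.86, 4.31 and 8.53 in the low libraries. The high libraries lay below the low libraries, and the mean log2 ratio was 1.82 ± 0.14 against 2.58 ± 0.49 (SD, n = 3), a difference of -0.77. Low replicate 5, where Bax was highest and Bcl2 lowest, gave the highest ratio, and without it the difference was -0.51. Without high replicates 1 and 3 and low replicate 2, the libraries of low granulosa marker level, it was -1.17. Bax over Bcl2l1 was 2.12, 1.48 and 1.63 in the high and 1.58, 1.69 and 2.37 in the low libraries, which overlapped. Bax over Mcl1 was 0.307, 0.239 and 0.221 against 0.305, 0.269 and 0.395, and Mcl1 exceeded Bax in every library. Bcl2l11 over Bcl2 was 1.03, 0.619 and 1.14 against 0.775, 0.778 and 1.35, and the groups overlapped. A ratio over chosen genes was given no test.

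**Figure D4:**
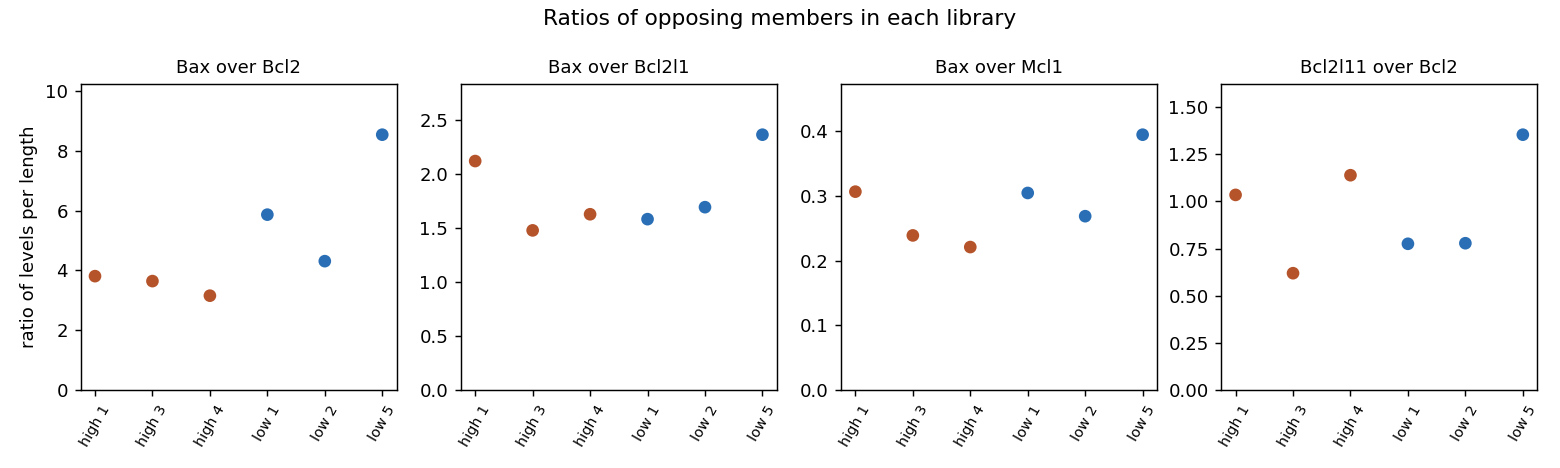
Ratios of levels per exon length for 4 pairs of members in each library, high litter size in orange and low litter size in blue. Bax over Bcl2 is 3.15 to 3.81 in the high and 4.31 to 8.53 in the low libraries, and the other 3 ratios overlap between groups.

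The rest of the family held genes with wider fitted differences than the members. Of 15 other Bcl2 family genes, all tested, 10 had positive and 5 negative log2 fold changes with a median of 0.70, and 0 passed by edgeR. Bcl2l15, a family gene known mainly from epithelia of the gut, had 0.613, 1.81 and 5.03 CPM in the high libraries against 38.6, 37.3 and 21.9 CPM in the low ones. The groups were far apart, with a log2 fold change of -3.71 (SE 0.75, edgeR adjusted p = 0.162). The direction was that of the simple epithelium markers given above, and the part of those markers was not tested. Bcl2l14 had 2.40, 3.87 and 2.66 CPM in the high libraries against 9.36, 12.3 and 3.59 CPM in the low ones, with a log2 fold change of -1.49. Bnip3, a mitophagy receptor induced by low oxygen, had 51.7, 351 and 153 CPM in the high libraries against 33.7, 88.9 and 37.6 CPM in the low ones, with a log2 fold change of 1.80 (SE 0.73, edgeR adjusted p = 0.337). Its highest library was high replicate 3, that of the highest adipocyte sum, and the part of adipocytes was not tested. The Bcl2a1 genes are near-identical copies, and their values, 1 of which (Bcl2a1a) did not overlap between groups, are uncertain.

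**Figure D5:**
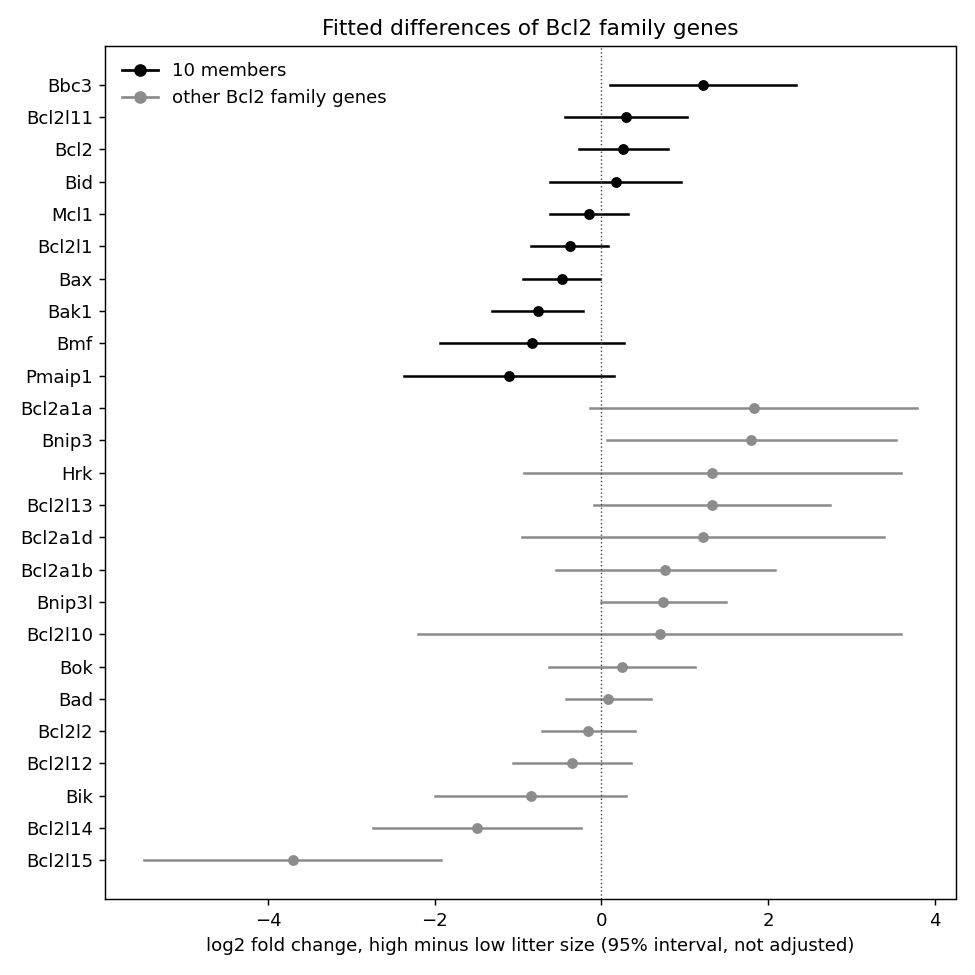
Fitted log2 fold change, high minus low litter size, of the 10 members (black) and 15 other Bcl2 family genes (grey), with 95% intervals that are not adjusted for the number of genes. Bak1, Bax and Bbc3 are the members whose interval does not include 0, and none passes the adjusted test.

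The list of apoptosome and caspase genes, with Vdac1, Vdac2 and Vdac3 among them, was split evenly. Of its 20 genes 10 had positive and 10 negative log2 fold changes, with a median of 0.01, and 0 passed by edgeR. Apaf1, the scaffold of the apoptosome, had 23.9, 20.0 and 34.6 CPM against 49.1, 44.3 and 30.3 CPM, with a log2 fold change of -0.66. Aifm1, a mitochondrial flavoprotein, had a log2 fold change of 0.74 and its highest level, 154 CPM, in high replicate 3.

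The death receptor pathway, which meets the family at Bid, held 11 tested genes, of which 4 had log2 fold changes above and 7 below 0, and 0 passed by edgeR. The receptor Fas had 7.51, 26.9 and 9.30 CPM in the high libraries against 7.74, 10.3 and 4.29 CPM in the low ones. High replicate 3 was highest, as it was for Bid and for the adipocyte and erythroid sums. A link of Fas to Bid was not tested. The TNF receptor Tnfrsf1a and the ligand Tnfsf10 had log2 fold changes of 0.34 and -0.62, and the groups of both overlapped.

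Beside Bbc3 and Pmaip1, 14 genes of the p53 family, its regulators and its other targets were tested. Of these 9 had positive and 5 negative log2 fold changes, and 0 passed by edgeR. Trp53 itself had 46.8, 30.8 and 47.2 CPM in the high libraries against 54.2, 52.5 and 58.7 CPM in the low ones, which did not overlap, with a log2 fold change of -0.41 (SE 0.22, edgeR adjusted p = 0.454). Trp63, which encodes p63, was in the opposite direction, with 9.40, 14.7 and 11.4 CPM in the high libraries against 0.751, 0.587 and 1.25 CPM in the low ones (log2 fold change 3.76, SE 0.44, edgeR adjusted p = 0.14). Gene totals do not separate the p63 form of oocytes from that of stratified epithelium. The oocyte markers summed to 2.15, 3.50 and 69.0 CPM in the high libraries, where Trp63 had its 3 highest values. In the low libraries they summed to 15.2, 3.89 and 47.9 CPM, and which form was read was not tested. The p53 targets Eda2r and Sesn2 had log2 fold changes of 1.61 and 1.21, and in both the high libraries lay above the low libraries. For Sesn2, high replicate 3 stood out with 46.9 CPM, beside 16.5 and 16.1 CPM in the other high libraries.

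Of 11 other regulators of BH3-only genes, 5 had positive and 6 negative log2 fold changes, and 0 passed by edgeR. The stress factor Atf4 and the AP-1 subunit Jun had log2 fold changes of -0.45 and -0.25, and the groups of Jun did not overlap. Dynll2, the dynein light chain that holds Bmf at the cytoskeleton, had 216, 568 and 180 CPM in the high libraries against 198, 211 and 152 CPM in the low ones. Its log2 fold change was 0.78 (SE 0.47, edgeR adjusted p = 0.495). Its highest library, high replicate 3, was the lowest for Bmf and that of the highest adipocyte sum. In low replicate 5, where Dynll2 was lowest, Bmf had 50.0 CPM. In low replicate 2, where Bmf was highest at 151 CPM, Dynll2 had 211 CPM. A link of Dynll2 to the level of Bmf was not tested.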

How the data were processed

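The deposited values are estimated counts per gene in whole numbers, taken as rounded kallisto output, which is not stated. Per the submitters' processing notes, the tools were Trim Galore, kallisto and DESeq2 and the build was GRCm38, with no versions. kallisto shares reads between similar transcripts, so close paralogs are uncertain. Symbols came from a table of gene names (35869 genes matched), and lengths, coordinates and coding sequences from GENCODE M21 (GRCm38).

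Genes with too few counts were removed with filterByExpr (minimum count 10, minimum total 15), leaving 16455. After TMM scaling, edgeR 4.0.16 (R 4.3.3) fitted a quasi-likelihood model of litter size, high minus low, with no covariate, on all 6 libraries, with Benjamini-Hochberg adjustment over all genes and a threshold of 0.05. SE is the log2 fold change over the root of F. Ratios used a prior count of 0.5. Ratios, counts and figures were made in Python 3.11.15 with pandas 2.3.3 and matplotlib 3.10.9.

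Alternatives were DESeq2 1.42.0, voom in limma 3.58.1, 2 other scalings, 2 other filters and each library left out. The joint removal of 3 libraries was chosen after seeing the data. The members and lists were chosen with earlier results of these data known. The members and Trp53 were always named, and from each other list the 3 genes of smallest p, of which 1 is not reported here. Others are named where a small count calls for it (Bcl2a1a).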

Additional observations from a re-analysis of the deposited data

How the results depend on the processing

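For the members, 127 of 130 values under 13 alternatives kept the direction of the reported value, and 0 passed the adjusted threshold with edgeR, DESeq2 or limma voom. The exceptions were Bid without high replicate 3 (-0.15, where leaving out each library gave -0.15 to 0.32), and, with high replicates 1 and 3 and low replicate 2 removed together, Bid (-0.25) and Bmf (0.12). With those 3 removed Bbc3 and Pmaip1 kept their direction at 0.43 and -0.43, against 1.22 and -1.11 as reported. That removal leaves 1 high library against 2, the lone library being assumed to vary like the low group. Over all genes, the 1 call became 2 with library size alone, 3 with limma voom and 1016 with DESeq2 (344 higher, 672 lower), 0 to 1 with each library left out, where edgeR gave 1241 to 2838 genes at an unadjusted p under 0.05, and 0 (1742 unadjusted) with the 3 removed. The difference in log2 ratio of Bax over Bcl2 ran from -1.01 to -0.51 with each library left out and was -1.17 with the 3 removed. Bax over Mcl1 ran from -0.47 to -0.18 and was -0.65 with the 3 removed. Bax over Bcl2l1, reported at -0.10, ran from -0.25 to 0.07, with 0.0058 without high replicate 3 and 0.073 without low replicate 5. Bcl2l11 over Bcl2, reported at -0.05, ran from -0.22 to 0.22, with 0.22 without high replicate 3, 0.21 without low replicate 5 and 0.15 with the 3 removed. The causes of these shifts were not tested. Where libraries were left out, the smaller number of samples cannot be told apart from which library was lost. With scaling by library size alone, Bak1, Bcl2l1 and Bbc3 were the members whose groups did not overlap. Members called were 0 in each of these fits. No paired analysis was possible because high and low samples have just 1 replicate number in common. With 3 libraries a group, the 95% interval of Bak1 ran from -1.31 to -0.22 and that of Pmaip1 from -2.37 to 0.15, and neither difference passed after adjustment.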
